A study of Mus musculus with 8 samples.

Results

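The 9 genes described here are tied together by selenium and by thyroid hormone activation: Dio1, Selenop, Selenbp1, Selenbp2, Gpx1, Gpx3, Gpx4, Txnrd2 and Sephs2. They were taken by name from the arrays, through the gene name or the RefSeq accession of each probe, with Selenop carried under its older symbol Sepp1. All 9 were found, on 19 probes of the 149782 non-control probes, and all 9 stand among the 13912 genes that passed the filter on dim probes. The group was chosen by the measured difference between the 2 treatment groups in these same arrays, together with what the genes do, so that difference is given for the members as a description, with no test.

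RNA came from the livers of male mice, 1 one-colour (Cy3) Agilent array per sample, with 4 biological replicates per group by the study's design. The control group is described as normal mice. The oxaliplatin group received this platinum chemotherapy drug by intraperitoneal injection each week for 6 weeks, a regimen meant to produce hepatic sinusoidal obstruction syndrome, in which the liver's smallest vessels are damaged. Strain and age are not given in the sources used here. Whole liver was measured, so fewer cells of a type and less RNA per cell cannot be told apart.

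Selenoproteins carry selenocysteine, which is inserted at a UGA codon that is read through with the help of a stem-loop in the 3′ untranslated region of the mRNA and a dedicated tRNA. The liver makes selenoprotein P (Selenop), the plasma protein that carries selenium to other organs, and it also makes type 1 deiodinase (Dio1), the selenoenzyme that converts thyroxine to the active hormone T3 and clears reverse T3. The glutathione peroxidases and the thioredoxin reductases use the same residue to reduce peroxides and thioredoxin, while the selenium-binding proteins Selenbp1 and Selenbp2 bind selenium without containing selenocysteine.

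Levels are log2 intensities after subtraction of the array's 75th percentile, a difference is the oxaliplatin mean minus the control mean, and the probe with the highest mean over all 8 arrays stands for its gene. Between 27.2% and 40.9% of the non-control probes were well above background, depending on the array, and precision is limited by having 4 arrays per group. Each slide held the arrays of 1 group, so group cannot be told apart from slide or from any step done slide by slide. Oxaliplatin replicates 1 and 2 have a run name of their own, unlike the other 6 arrays. As a check of the labels, 5 targets of p53, which DNA damage induces, were read: all 5 fell on the arrays labelled oxaliplatin, by limma with Benjamini-Hochberg adjustment, with log2 differences of -3.61 for Cdkn1a (adjusted p = 0.0117), -3.57 for Phlda3 (0.000214), -1.58 for Ccng1 (0.000889) and -0.43 for Mdm2 (0.0318). The fifth, Eda2r, was well above background on no oxaliplatin array and lay at least 6.4-fold lower there (adjusted p = 0.00106), and the Mdm2 call was lost without control replicate 2 or 3 or oxaliplatin replicate 2, 3 or 4. Platinum drugs are known to raise these genes, so the result runs against that background, and an exchange of the group labels was not tested. Every direction below follows the labels as given and would turn if they were exchanged. Of the 13912 genes tested, 973 rose and 1617 fell at an adjusted p under 0.05, and without oxaliplatin replicate 3, the omission that lost the most calls, 457 rose and 558 fell. The median difference of all genes was -0.09, and centring each array on the median of all its non-control probes moved that median by -0.63, the percentile over probes detected on every array by 0.11 and no filter on dim probes by 0.18.

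Of the 9 members, the fit that gave those calls placed 4 past its threshold as higher (Dio1, Selenop, Selenbp1 and Selenbp2) and 1 as lower (Gpx3), and left 4 (Gpx1, Gpx4, Txnrd2 and Sephs2) short of it, where 18.6% of all tested genes were called, 6.99% as higher and 11.6% as lower. Since this contrast chose the members, nothing is read from that count. Of 22 alternatives, 15 lost the call of Selenbp1, 9 that of Dio1, 8 that of Gpx3, 6 that of Selenbp2 and 2 that of Selenop. By the arrays themselves, the oxaliplatin group lay wholly above the control group in 4 members and wholly below it in 1, where 9.26% of all genes lay wholly above, 18.4% wholly below and 27.7% did either, and the groups overlapped in the other 4. The median of the 9 differences was 0.30. With arrays centred on the median of all probes, Selenop (-0.06), Selenbp1 (-0.15), Gpx1 (-0.34) and Sephs2 (-0.33) lay below 0, so their direction depends on the scaling. Of 22 alternatives, median centring was the only 1 that changed the sign of these 4. It called 230 genes higher and 9687 lower, and no array had more than 40.9% of its probes well above background.

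**Figure D1:**
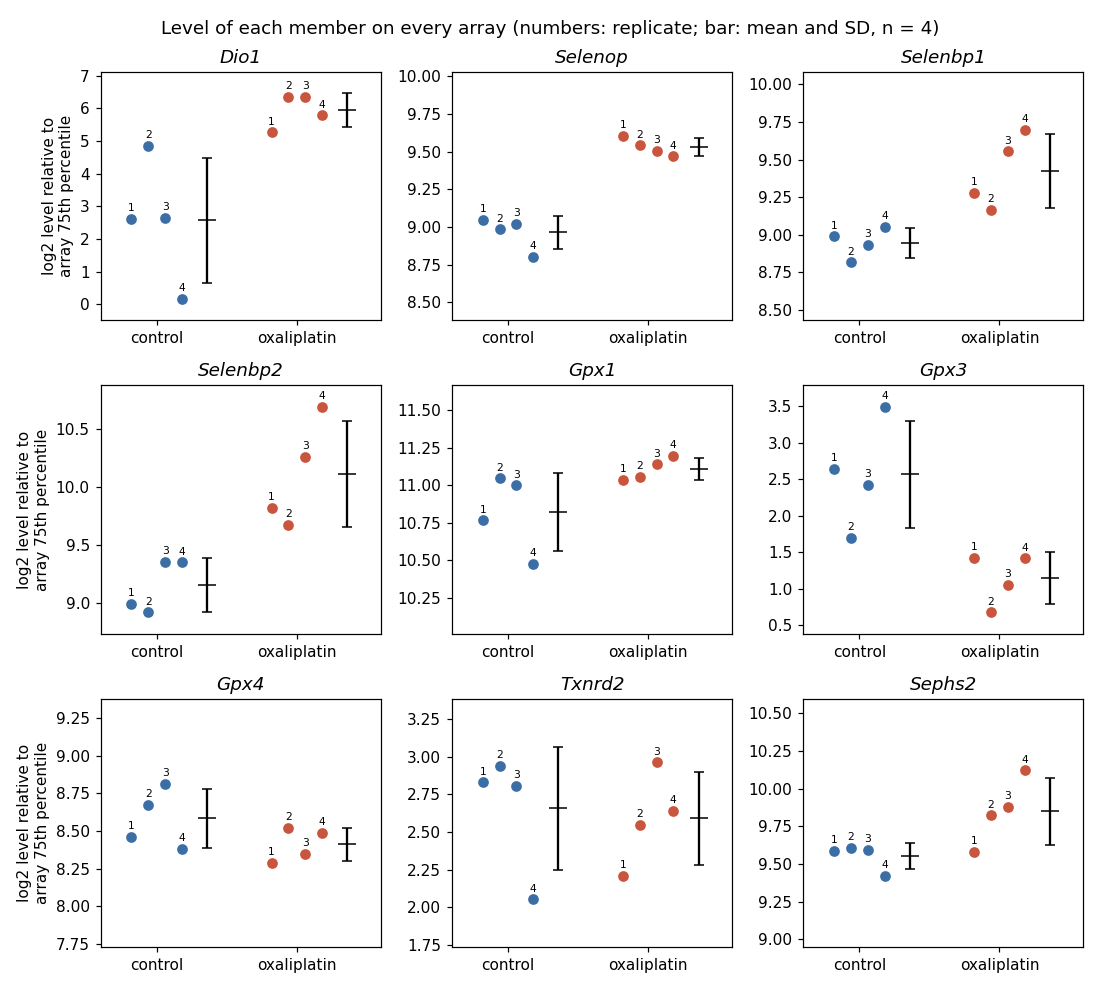
Log2 level relative to the array's 75th percentile (vertical axis, on a scale of its own for each gene) of the 9 members on the 4 control (blue) and 4 oxaliplatin arrays (red), numbered by replicate, with the mean and SD of each group as a bar. The oxaliplatin arrays lie above all control arrays for Dio1, Selenop, Selenbp1 and Selenbp2 and below them for Gpx3, and the wide control spread of Dio1, from 0.17 to 4.86, is the broadest in the panel. With arrays centred on the median of all probes the differences of Selenop, Selenbp1, Gpx1 and Sephs2 turn below 0.

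The deiodinase was the member with the widest difference. Dio1 stood at 2.62, 4.86, 2.66 and 0.17 on control replicates 1 to 4, and at 5.27, 6.35, 6.35 and 5.79 on the oxaliplatin arrays. All 4 oxaliplatin arrays lay above the highest control array, control replicate 2, and control replicate 4 lay far below the other controls. The group means were 2.58 ± 1.92 and 5.94 ± 0.52 (SD, n = 4 each), a difference of 3.36 ± 0.84 (SE), or 10.3-fold. The control group alone spanned 25.8-fold from its lowest to its highest array, whereas the oxaliplatin group spanned 2.11-fold. The difference was 2.56 without control replicate 4 and 4.12 without control replicate 2. Dio1 stayed past the threshold of the fit in those 2 omissions. It fell short without control replicate 1 or 3 or any 1 oxaliplatin array.

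A further Dio1 probe read another stretch of the same mRNA, and it is shown with the first because the width of the control spread rests on these 2 oligonucleotides. The 5′ 30 bases of each 60-base probe, as the array files list them, read:
Dio1 brighter probe: accatcttgaaatagattgcactaggaatc
Dio1 other probe: gacttgatttttaaaaatgtcggaagatgc
Per the files the brighter probe lies on the minus strand at chr4:106964052-106964088 of build mm9, an interval shorter than the probe. The other probe stood at 2.58, 4.59, 2.43 and -0.25 on control replicates 1 to 4 and at 5.48, 6.53, 6.32 and 5.94 on the oxaliplatin arrays, a difference of 3.73 ± 0.85. Control replicate 2 was again the highest control and control replicate 4 again the lowest, and the groups again did not overlap.

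By likeness of pattern, the 5 tested genes with the highest Pearson correlation with Dio1 over the 8 arrays were Slc25a20 (r = 0.997), Atp5g3 (0.993), Acsl1 (0.992), Ces3b (0.992) and Sult2a8 (0.989). They encode the mitochondrial carnitine-acylcarnitine carrier, a subunit of ATP synthase, a long-chain acyl-CoA synthetase, a carboxylesterase and a sulfotransferase. The correlation is a description over 8 arrays that share the group difference. After each group's mean was subtracted, r was 0.992 for Slc25a20, 0.982 for Atp5g3, 0.978 for Acsl1, 0.978 for Ces3b and 0.985 for Sult2a8. Slc25a20 stood at 6.39, 7.12, 6.18 and 5.29 on control replicates 1 to 4, again highest on replicate 2 and lowest on replicate 4, and at 7.33, 7.81, 7.83 and 7.54 on the oxaliplatin arrays. Its difference was 1.38 ± 0.34, Acsl1's 1.10 ± 0.27, Ces3b's 1.13 ± 0.27 and Sult2a8's 2.80 ± 0.87, while Atp5g3's 0.33 ± 0.12 is smaller than the -0.63 shift of median centring, which would turn it. These genes were picked for their likeness to Dio1 on the same arrays, so their differences are given with no test.

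Among the proteins that handle selenium, Selenop lay higher on the oxaliplatin arrays by a small and even amount. It stood at 9.05, 8.99, 9.02 and 8.80 on control replicates 1 to 4 and at 9.61, 9.54, 9.51 and 9.47 on the oxaliplatin arrays. The groups did not overlap, and each was tight, with means of 8.96 ± 0.11 and 9.53 ± 0.06 (SD, n = 4). The difference was 0.57 ± 0.09, or 1.48-fold, and turned to -0.06 with arrays centred on the median of all probes. The further Selenop probe, which shares 45 bases with the first and so is hardly a separate reading, gave 0.68 ± 0.10 with no overlap. The first probe lies at chr15:3230418-3230477 (mm9).

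Sephs2, selenophosphate synthetase, makes the selenium donor for selenocysteine and is itself a selenoprotein. It stood at 9.59, 9.61, 9.60 and 9.42 on the control arrays and at 9.58, 9.82, 9.88 and 10.12 on the oxaliplatin arrays. The groups overlapped through oxaliplatin replicate 1, which lay below 3 of the 4 controls, and the difference of 0.30 ± 0.13 turned to -0.33 with median centring over all probes. Its other probe (chr7:134415845-134415904, minus strand, mm9) gave 0.04 ± 0.16, so the 2 probes differ in how far they separate the groups.

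Of 8 hepatocyte markers measured, 3 rose by limma (Alb, Ttr and Trf; Alb lay at -0.07 with median centring over all probes), none fell and 5 did not pass, with differences from -0.03 to 1.29. Their summed level, as a multiple of the array's 75th percentile, ran from 8153 to 8386 on the control arrays and from 9317 to 10231 on the oxaliplatin arrays. The part of hepatocyte content in these differences was not tested.

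On their brighter probes, the paired selenium-binding protein genes both lay higher on the oxaliplatin arrays, Selenbp2 by the larger amount. Selenbp1 is a methanethiol oxidase that also gives off hydrogen sulfide, and Selenbp2 is its close relative, known as the liver protein that binds acetaminophen. Both genes lie on chromosome 3 and their mRNAs are so alike that the probes are shown: the stretch below is shared by the brighter Selenbp1 probe and both Selenbp2 probes apart from the letters in capitals.
Selenbp1 brighter probe: ttttcttaagtgagctcctggaagcaccAA
Selenbp2 both probes: ttttcttaagtgagctcctggaagcaccTG
Over the 54 bases in which the brighter Selenbp1 and the brighter Selenbp2 probe overlap there were 3 mismatches, and also 3 in the 59 bases shared with the other Selenbp2 probe. The files list both mRNAs as targets of each of the 2 brighter probes, so their signals are uncertain as to gene, and cross-hybridization was not tested. A further Selenbp1 probe shares no run of 20 letters with a probe of any other gene, and begins:
Selenbp1 other probe: agtgaaatccaagccaagtgcaacgtgagc

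On the brighter probe (chr3:94748620-94748679, mm9), Selenbp1 stood at 8.99, 8.82, 8.93 and 9.05 on control replicates 1 to 4 and at 9.28, 9.16, 9.55 and 9.70 on the oxaliplatin arrays. The groups did not overlap on this probe, whose difference was 0.48 ± 0.14, or 1.39-fold, and -0.15 with median centring over all probes. The other Selenbp1 probe was compared with probes of the array only, and its likeness to the Selenbp2 mRNA was not tested. On that probe the controls stood at 3.22, 3.16, 3.95 and 3.80 and the oxaliplatin arrays at 3.64, 3.23, 4.03 and 4.88. Here the groups overlapped, and the difference of 0.41 ± 0.35 was little more than its error.

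Selenbp2 (brighter probe at chr3:94508262-94508321, mm9) stood at 8.99, 8.92, 9.36 and 9.35 on control replicates 1 to 4 and at 9.82, 9.68, 10.26 and 10.69 on the oxaliplatin arrays. All oxaliplatin arrays lay above all controls, and the difference was 0.96 ± 0.23, or 1.94-fold. The other Selenbp2 probe, which shares 53 bases with the first and so is hardly a separate reading, gave a difference of 1.41 ± 0.23, or 2.65-fold. It stood at 8.25, 8.19, 8.53 and 8.59 on the controls and at 9.51, 9.32, 9.99 and 10.36 on the oxaliplatin arrays. With median centring over all probes the brighter probe's difference was 0.33. On all 4 probes of the pair, oxaliplatin replicate 4 was the highest and oxaliplatin replicate 2 the lowest of its group. The oxaliplatin arrays that share the controls' run name, replicates 3 and 4, were thus the higher ones, and against the controls they gave 0.68 for Selenbp1 and 1.32 for Selenbp2.

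The brighter probes of the 2 genes lay higher together, but their likeness leaves unknown whether both mRNAs rose. The promoters are shown side by side, as the 250 bases before each transcription start in RefSeq (GRCm38.p6, plus strand). They lie at chr3:94932833-94933082 for Selenbp1 and chr3:94693323-94693572 for Selenbp2. Capitals mark matches to CCAAT and TATAAA on either strand.
Selenbp1 promoter: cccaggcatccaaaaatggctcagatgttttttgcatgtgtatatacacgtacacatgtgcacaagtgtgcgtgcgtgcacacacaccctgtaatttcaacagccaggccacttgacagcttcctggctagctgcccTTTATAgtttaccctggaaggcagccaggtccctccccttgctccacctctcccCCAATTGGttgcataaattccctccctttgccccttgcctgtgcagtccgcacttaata
Selenbp2 promoter: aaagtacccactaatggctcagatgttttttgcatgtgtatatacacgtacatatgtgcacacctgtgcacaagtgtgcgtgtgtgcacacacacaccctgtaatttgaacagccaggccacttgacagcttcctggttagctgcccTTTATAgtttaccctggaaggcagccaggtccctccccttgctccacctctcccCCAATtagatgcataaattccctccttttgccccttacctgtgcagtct
Over windows of 300 bases around the start, 272 of 312 aligned columns were identical (87.2%), and 24 held a gap. Both windows hold CCAAT on the printed strand, beginning at base -59 in Selenbp1 and -49 in Selenbp2 from the start site, and TATAAA on the opposite strand, at -113 and -103. Selenbp1 holds a further CCAAT on the opposite strand that overlaps the first. Motifs were searched in windows of 300 bases, which run past the start; of 32851 such windows in the table, 37.4% hold CCAAT and 13.6% TATAAA. The other motifs searched on both strands, AGGTCA (in 16.3% of promoters), TGTTTAC (3.65%), GGGCGG (35.7%), TGACNNNGC (12.4%) and GATAAG (7.44%), were in neither window, and none of the 7 was in that of Dio1. A match or its absence is a description of these letters only.

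Among the members that are glutathione peroxidases, only Gpx3 separated the control and oxaliplatin arrays on its brightest probe. Gpx1, the cytosolic enzyme, stood at 10.77, 11.05, 10.998 and 10.48 on control replicates 1 to 4 and at 11.03, 11.06, 11.14 and 11.20 on the oxaliplatin arrays (chr9:108242276-108242335, mm9). The oxaliplatin arrays were close together and overlapped the controls through control replicate 2. Its difference was 0.28 ± 0.14, and -0.34 with median centring over all probes. On the other Gpx1 probe the controls stood at 9.73, 9.59, 9.79 and 9.26 and the oxaliplatin arrays at 10.10, 10.06, 10.10 and 10.17, a difference of 0.52 ± 0.13 with no overlap.

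Gpx1 and Selenbp1 are also abundant in red blood cells, and the summed level of erythroid markers was higher on every oxaliplatin array than on any control. Of 4 measured, 2 rose (Alas2 and Hbb-bs) and 1 fell (Klf1), and Epb42 did not pass the filter on dim probes. Their summed level ran from 142 to 436 times the array's 75th percentile on the controls and from 629 to 985 on the oxaliplatin arrays. The part of red cell RNA in the Gpx1 and Selenbp1 differences was not tested.

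Gpx3, the secreted plasma peroxidase that is made chiefly in the kidney and in fat, was the member that lay lower on the oxaliplatin arrays. It stood at 2.65, 1.70, 2.43 and 3.49 on control replicates 1 to 4 and at 1.43, 0.68, 1.06 and 1.42 on the oxaliplatin arrays. All oxaliplatin arrays lay below all controls, with control replicate 4 the highest array and control replicate 2 the lowest control. The group means were 2.57 ± 0.74 and 1.14 ± 0.36 (SD, n = 4), a difference of -1.42 ± 0.35, or 2.68-fold lower. The other Gpx3 probe (chr11:54723436-54723495, mm9) stood at 2.37, 1.21, 2.25 and 3.22 on the controls and at 1.11, 0.07, 0.83 and 1.27 on the oxaliplatin arrays. Its difference was -1.44 ± 0.41, with oxaliplatin replicate 4 just above control replicate 2.

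Of 3 adipocyte markers measured, 1 fell (Fabp4) and 2 did not pass, with differences from -1.24 to 0.49, and Adipoq did not pass the filter on dim probes. Their summed level ran from 42.4 to 85.8 on the control arrays, highest on control replicate 4 as for Gpx3, and from 22.1 to 39.9 on the oxaliplatin arrays. Of 4 kidney tubule markers only Kap passed the filter, at 0.189 to 0.568 on the controls and 0.506 to 0.678 on the oxaliplatin arrays, while Slc34a1, Umod and Slc12a1 did not pass. The part of other tissue in the Gpx3 difference was not tested.

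Gpx4, which reduces lipid hydroperoxides inside membranes, stood at 8.46, 8.68, 8.81 and 8.38 on control replicates 1 to 4 and at 8.29, 8.52, 8.35 and 8.49 on the oxaliplatin arrays (chr10:79518691-79518842, mm9). The groups overlapped, and the difference was -0.17 ± 0.12 on this probe and -0.30 ± 0.14 on the other, which shares 45 bases with it. Txnrd2, the mitochondrial thioredoxin reductase, stood at 2.83, 2.94, 2.81 and 2.05 on the controls and at 2.21, 2.55, 2.96 and 2.64 on the oxaliplatin arrays (chr16:18472333-18472936, mm9). The groups overlapped on all 3 Txnrd2 probes, whose differences were -0.07 ± 0.23, -0.13 ± 0.17 and -0.30 ± 0.30, the last from a probe well above background on 7 of 8 arrays. The first 2 of these probes share 53 bases. The sign of the Txnrd2 difference changed under 8 of 22 alternatives.

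**Figure D2:**
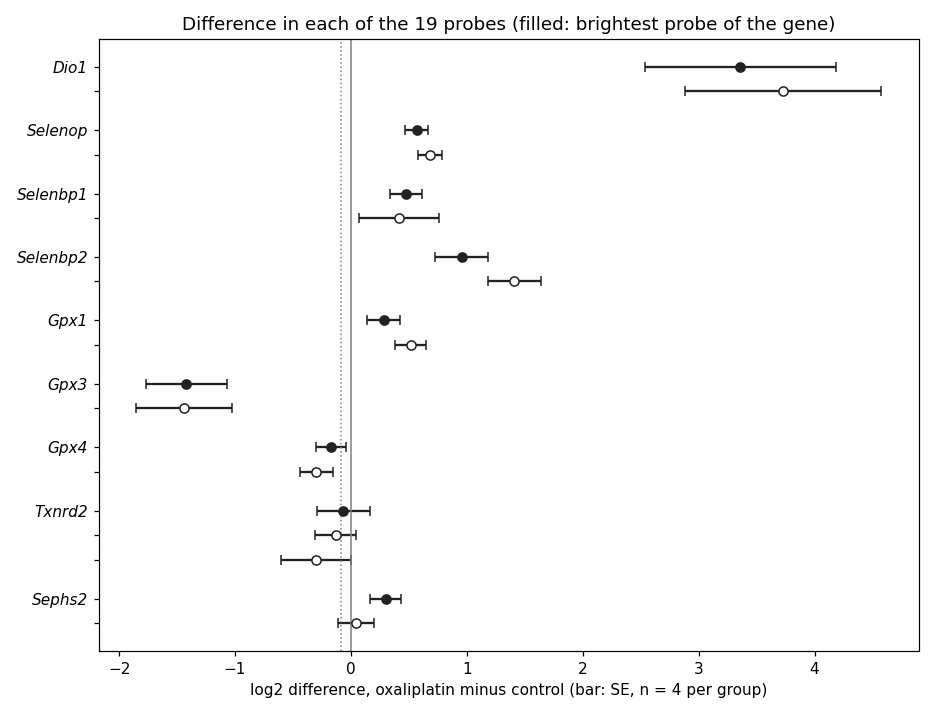
Log2 difference, oxaliplatin minus control (horizontal axis), of each of the 19 probes of the 9 members, with its SE (n = 4 arrays per group), the filled point being the brightest probe of the gene, the solid line 0 and the dotted line the median of all tested genes, -0.09. The probes of each gene lie on the same side of 0 in all 9 genes under this scaling, whereas centring on the median of all probes puts the brightest probes of Selenop, Selenbp1, Gpx1 and Sephs2 below 0. Pairs of probes of Selenop, Selenbp2, Gpx4 and Txnrd2 share 45 to 53 bases, so they are hardly separate readings.

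Across the 19 probes, 18 were well above background on all 8 arrays and none was saturated. The groups separated upward on 8 probes and downward on 1, and overlapped on 10. By gene, 9.26% of all genes lay wholly above and 18.4% wholly below, and the share over all probes was not counted. Since the contrast chose the members and several of their probes share bases, nothing is read from these probe counts. Against the 2 oxaliplatin arrays of the controls' own run name, the differences were 3.49 for Dio1, 0.52 for Selenop, 0.35 for Gpx1, -1.33 for Gpx3, -0.17 for Gpx4, 0.14 for Txnrd2 and 0.45 for Sephs2, so that Txnrd2 was the only member to change sign there.

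The spread of Dio1 within the groups was set against that of the other 8 members, a question chosen after the values had been seen. Each member's deviations from its group means over the 8 arrays were correlated with those of Dio1, with two-sided exact permutations within groups (576 arrangements) and adjustment over the 8 relations. Gpx3 gave Pearson's r of -0.957 (exact p = 0.00868, adjusted 0.0556) and Spearman's rho of -0.976 (exact p = 0.00347, adjusted 0.0278), of which rho passed 0.05 after adjustment and r did not. Because the values were seen before the question was set, these p-values describe the pattern and do not test it. Without control replicates 2 and 4, which lie farthest out in Dio1, r was -0.809. Both parts of this pattern can be read off the values: control replicate 4 is lowest in Dio1 and highest in Gpx3, and control replicate 2 the reverse among the controls.

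No relation of another member passed after adjustment. Txnrd2 gave r of 0.821 (exact p = 0.0139, adjusted 0.0556) and rho of 0.690 (exact p = 0.111, adjusted 0.222), and r was 0.772 without control replicates 2 and 4. Gpx1 gave r of 0.856 (exact p = 0.0521, adjusted 0.139) and rho of 0.714 (exact p = 0.0868, adjusted 0.222), but r was 0.183 without the same arrays, so that value rests on them. The other 5 members had exact p-values of r between 0.108 for Sephs2 and 0.436 for Selenop, with r from -0.345 for Selenbp1 to 0.590 for Gpx4. Within the run name that holds all controls only 2 oxaliplatin arrays remain, and the controls alone gave r of -0.993 for Gpx3 and 0.906 for Txnrd2, each over 4 arrays and with no test.

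**Figure D3:**
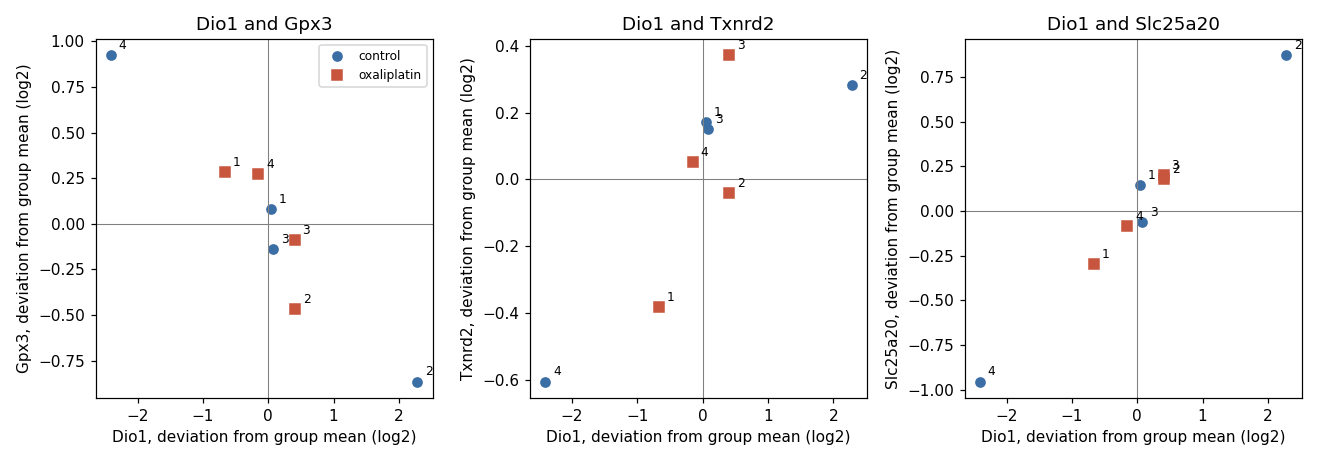
Deviation of Dio1 from its group mean (horizontal axis, log2) against the deviation of Gpx3, Txnrd2 and Slc25a20 from theirs (vertical axes, log2), with control arrays as blue circles and oxaliplatin arrays as red squares, numbered by replicate. Control replicates 2 and 4 lie at opposite ends of the Dio1 axis, and r was -0.957 for Gpx3 and 0.821 for Txnrd2, neither of which passed after adjustment over 8 relations, and 0.992 for Slc25a20, which was picked for its likeness to Dio1.

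Of 17 other selenoproteins, 14 were measured, and Dio2, Dio3 and Selenov did not pass the filter on dim probes. By limma, 1 of the 14 rose, 2 fell and 11 did not pass, with a median difference of -0.22 against -0.09 for all genes. Msrb1, which repairs oxidized methionine, rose by 0.51 ± 0.12 (adjusted p = 0.0262), though its difference was -0.12 with median centring over all probes. Gpx2, the gastrointestinal peroxidase, fell by 0.93 ± 0.23 (0.0293) with 3 of 4 oxaliplatin arrays well above background, though its groups overlapped. Selenok, a protein of the endoplasmic reticulum membrane, fell by 0.49 ± 0.12 (0.0304). The call was lost under 11 of 21 alternatives for Gpx2, 13 of 22 for Selenok and 9 of 22 for Msrb1. Selenof and Selenos, both of the endoplasmic reticulum, differed by -0.05 ± 0.10 (0.773) and -0.48 ± 0.17 (0.0833). Between 0 and 5 of the list passed when 1 array was left out: 5 without control replicate 2, 1 each without control replicate 3, oxaliplatin replicate 1 and oxaliplatin replicate 4, and 0 without oxaliplatin replicate 2 or 3, where 5 and 6 had an unadjusted p under 0.05.

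The 13 genes that make selenocysteine and insert it were all measured. None rose and 2 fell, with a median difference of -0.27. Trnau1ap, a protein associated with the selenocysteine tRNA, fell by 0.56 ± 0.09 (limma, adjusted p = 0.00803), and so did Secisbp2l, a relative of the protein that binds the selenocysteine insertion stem-loop, by 0.46 ± 0.09 (0.0149). The ribosomal protein Rpl30, which also binds that stem-loop, differed by 0.18 ± 0.10 (0.235), or -0.45 with median centring over all probes, and nucleolin (Ncl) by -0.61 ± 0.19 (0.0548). Trnau1ap's other probes differed by -0.57 and -0.61. The probes of Rpl30, Ncl and Secisbp2l disagree in size or sign: Rpl30's other probe differed by 0.82, and its mean over probes was called higher at 0.50. Ncl's other 4 probes differed by -0.70, -0.34, 0.20 and 0.25. Secisbp2l's other 3 differed by -0.37, -0.30 and -0.05, and its call was lost with the mean over probes. Secisbp2l did not pass without oxaliplatin replicate 3, and 4 genes passed without control replicate 1, Ncl among them.

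Of 10 genes of selenium uptake and metabolism, 8 were measured, and the receptors for selenoprotein P, Lrp8 and Lrp2, did not pass the filter. Both calls were downward and the median difference was -0.15. Selenocysteine lyase (Scly), which frees selenium from the amino acid for reuse, fell by 0.47 ± 0.09 (limma, adjusted p = 0.0156), and glutathione reductase (Gsr) by 0.81 ± 0.15 (0.0133). Cystathionine gamma-lyase (Cth) differed by -0.22 ± 0.24 (0.539) and the lipoprotein receptor Lrp1 by -0.07 ± 0.12 (0.72). Scly did not pass without oxaliplatin replicate 3.

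The 8 genes of sulfide metabolism, the pathway into which Selenbp1 feeds, gave 0 calls by limma and 0 genes at an unadjusted p under 0.05, with differences from -0.22 to 0.28 and a median of -0.05. Thiosulfate sulfurtransferase (Tst) differed by -0.11 ± 0.12 (adjusted p = 0.557). Without control replicate 4, Cth passed, with a difference of -0.48.

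Around Dio1, 21 of 22 genes of thyroid hormone transport, binding and receptors were measured, all but Slco1c1. In this list 3 rose and 4 fell, with a median difference of -0.02. The transporter Slco1a1 stood at 0.65, 4.14, 1.99 and -2.05 on control replicates 1 to 4, the same order of controls as in Dio1, and from 6.63 to 7.46 on the oxaliplatin arrays, with no overlap. It rose by 5.95 ± 1.11 (limma, adjusted p = 0.0126), with 3 of 4 control arrays well above background. Albumin (Alb), which carries thyroid hormones in plasma, rose by 0.56 ± 0.08 (0.00708) but lay at -0.07 with median centring over all probes.

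The other 3 of the 5 genes of that list with the smallest adjusted p fell. Crym, a cytosolic binder of T3, fell by 1.67 ± 0.23 (limma, adjusted p = 0.00504), and the transporter Slc16a10 fell by 0.71 ± 0.11 (0.0067). The sulfotransferase Sult1a1 fell by 0.83 ± 0.09 (0.00292) on its brightest probe, while its other probe differed by 0.32. Ugt1a1 at 0.15 ± 0.09 (0.267), whose other probe differed by -0.59, and Slco1b2 at 0.20 ± 0.23 (0.563) did not pass, and lay at -0.48 and -0.43 with median centring over all probes.

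Of 16 genes that thyroid hormone is known to control in liver, 15 were measured, all but Hr. Here 1 rose and 2 fell, with a median of 0.11. Klf9, a transcription factor induced by T3, stood at 5.52, 5.47, 5.36 and 5.61 on the controls and at 4.61, 4.61, 4.61 and 4.66 on the oxaliplatin arrays. It fell by 0.87 ± 0.09 (limma, adjusted p = 0.00229), and its other 2 probes differed by -0.49 and -0.81. Ppargc1a, a coactivator of mitochondrial genes, fell by 1.05 ± 0.21 (0.0151). Pck1, an enzyme of gluconeogenesis, rose by 0.34 ± 0.09 (0.0415), but lost its call without any 1 of the 8 arrays and lay at -0.29 with median centring over all probes. Fasn differed by -0.40 ± 0.18 (0.155), with other probes at 0.34 and -0.14, and Cpt1a by 0.11 ± 0.27 (0.796), or -0.51 with median centring over all probes.

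Among 20 partners of the peroxidases and thioredoxin reductases, 19 were measured, and Nnt was not matched by name. Of these 1 rose, 2 fell and 16 did not pass, with a median of -0.02. Sulfiredoxin (Srxn1), which restores overoxidized peroxiredoxins, fell by 1.17 ± 0.28 (limma, adjusted p = 0.0269), as did Gsr, named above, and Srxn1 lost its call without control replicate 4 or oxaliplatin replicate 2, 3 or 4. The extracellular superoxide dismutase Sod3 rose by 0.80 ± 0.14 (0.00961) on its brightest probe, but its other probe differed by -0.83 and the mean of the 2 by -0.02. Sod1 differed by 0.26 ± 0.11 (0.128) and catalase (Cat) by 0.53 ± 0.22 (0.122), and these turned to -0.37 and -0.10 with median centring over all probes.

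Around Gpx4, 17 of 19 genes of lipid peroxidation and its control were measured, all but Slc7a11 and Alox15. None rose and 3 fell, with a median of -0.14. Aifm2, which keeps ubiquinone reduced at the plasma membrane, fell by 0.63 ± 0.12 (limma, adjusted p = 0.0136). The amino acid exchanger subunit Slc3a2 fell by 0.40 ± 0.10 (0.0271), a call lost without control replicate 2 or any 1 oxaliplatin array, and the lipoxygenase Alox12 fell by 1.79 ± 0.37 (0.0178), a call lost without control replicate 3. The ferritin chains Ftl1 at 0.18 ± 0.12 (0.343), whose other probe differed by -0.20, and Fth1 at 0.30 ± 0.11 (0.0996) did not pass, and lay at -0.45 and -0.33 with median centring over all probes.

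Of 12 transcription factors known from work on the members' genes, all were measured, none rose and 4 fell, with a median of -0.28. Foxo3 fell by 1.19 ± 0.22 (limma, adjusted p = 0.012), with 3 of 4 oxaliplatin arrays well above background, and Gata6 by 0.84 ± 0.23 (0.0407), next to Ppargc1a and Klf9 given above. Its dissenting probe among 3 differed by 0.15, and the Gata6 call was lost without control replicate 1 or 3 or oxaliplatin replicate 2, 3 or 4. Hnf4a differed by 0.09 ± 0.13 (0.644), or -0.53 with median centring over all probes, with other probes at -0.19, -0.43 and -0.34, and Sp1 by -0.41 ± 0.14 (0.0667).

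**Figure D4:**
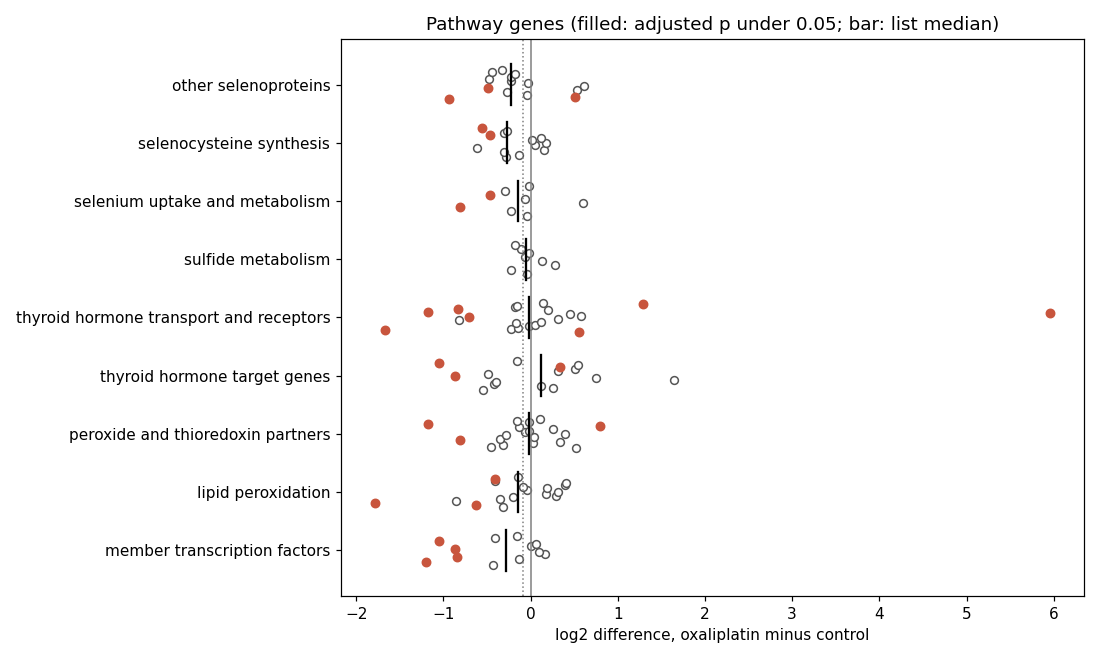
Log2 difference, oxaliplatin minus control (horizontal axis), of every measured gene of 9 lists, 1 row per list, filled where limma's adjusted p was under 0.05, with the list median as a black bar, 0 as the solid line and the median of all tested genes (-0.09) as the dotted line. Slco1a1 stands apart at 5.95, and the list medians lie between -0.28 and 0.11. Centring on the median of all probes shifts every point by -0.63 and puts called genes such as Msrb1, Alb and Pck1 below 0.

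The remaining cell type markers, read as other sources of liver RNA, were 6 Kupffer cell genes (0 rose and 1, Marco, fell), 6 of sinusoidal endothelium (Lyve1 fell), 5 of stellate cells (Dcn fell), 5 of cholangiocytes (none called by limma, 1 at an unadjusted p under 0.05), 2 of pancreas (Pnlip rose) and 4 of lymphocytes (Cd3e rose). Median differences were 0.50 for the Kupffer cell list, 0.08 for endothelium and -0.02 for stellate cells. By limma, 3, 2 and 1 of their genes had an unadjusted p under 0.05. The called genes thus do not give the direction of these lists. Their summed levels on control against oxaliplatin arrays ran from 516 to 1056 against 355 to 877 for Kupffer cells, from 364 to 435 against 339 to 448 for endothelium and from 342 to 461 against 315 to 360 for stellate cells. For cholangiocytes they ran from 45.8 to 86.2 against 49.2 to 105, for pancreas from 0.553 to 1.78 against 2.20 to 3.03 and for lymphocytes from 19.6 to 23.2 against 24.6 to 29.2. Cpa1 and Cpb1 of pancreas and Cd79a of lymphocytes did not pass the filter, and the part of these cells in the members' differences was not tested.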

How the data were processed

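The deposited scanner files of 8 arrays give linear intensity values. Per the file headers, Feature Extraction 12.0.3.1 made them, subtracting background and spatial trend inside each array but leaving arrays unnormalized against each other; in the submitters' processing notes stand limma and Agilent Feature Extraction 10.7. The deposited series matrix gives the authors' log2 values, with the normalization and centring not given in the sources used here. Set against the scanner values over 46861 probes, its columns had r from 0.9964 to 0.9998 and medians from 5.76 to 5.83, and it served as an alternative.

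Here the processed signal was put on the log2 scale and scaled to the 75th percentile of the 149782 non-control probes of its array. Outlier spots were dropped. A probe was used if at least 4 of 8 arrays, in whatever group, had it well above background (54636 probes). Names came from RefSeq accessions (GRCm38.p6 table): 47985 of 48257 accession probes matched, and 147 others have the file's own symbol. The brightest probe stood for its gene, which gave 13912 genes. limma 3.58.1 (lmFit, eBayes; R 4.3.3; prior degrees of freedom 2.37, residual 6) compared the groups, with p-values adjusted by Benjamini-Hochberg across all of them and called under 0.05. The script was tested on simulated data.

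Where the lower group had no array above background, its bound per array was the larger of the probe's signal and the dimmest signal still well above background. Alternatives were normexp (offset 50), 5 other scalings or value sources, the filter, the mean over probes, the variance model, each array omitted, the run name and a replicate block. The median over tested genes, the omission of control replicates 2 and 4 together and the correlations within groups were added after the data were seen. Deviations of same-numbered arrays had correlations from -0.322 to -0.0827, so the numbers were not taken to pair mice. Exon and UTR annotation of build mm9 was not used here.

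Members and gene lists were chosen with earlier results of these data known. Named are all members, each list's called genes (the 5 smallest adjusted p where there were more) and its 2 uncalled genes of highest mean level, the 5 genes most correlated with Dio1, and called cell type markers with their lists; 1 marker gene is not reported here.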

Additional observations from a re-analysis of the deposited data

Results flagged for a closer look

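A group's highest or lowest array stood apart from the rest (its gap to the nearest, over the group's range, above Dixon's 95% critical value) in 10 of 106 groups tested, where chance gives about 1 in 20. Among the members, control replicate 4 stood apart in Txnrd2 at 2.05 (next 2.81) and in Sephs2 at 9.42 (next 9.59). The same array stood apart in Ugt1a1 at 9.63 (next 9.78). Control replicate 3 stood apart in Scly at 8.75 (next 8.52) and in Mdm2 at 3.02 (next 2.84), and control replicate 1 in Hnf4a at 8.84 (next 9.30). Oxaliplatin replicate 4 stood apart in Alb at 11.30 (next 11.20), in Klf9 at 4.66 (next 4.61) and in Aifm2 at 5.88 (next 6.10), and oxaliplatin replicate 1 in Tst at 7.95 (next 8.16).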

How the results depend on the processing

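Counts of called genes are by limma. Over all 13912 genes, 2590 were called, and 1015 to 2335 with 1 array left out. Arrays centred on the median of all probes gave 9917 (230 higher, 9687 lower). With no filter on dim probes, 4111 of 21246 genes tested were called (2779 higher, 1332 lower). The count was 529 with the replicate block, 920 with the run name as a covariate and 515 within the first run name. It was 1130 without control replicates 2 and 4. Higher genes made up 37.6% of the calls, against 20.8% with normexp, 50% with quantile normalization, 49.3% for the authors' log2 values, 60.5% with the percentile over detected probes, 56.2% with the median over tested genes, 2.32% with median centring and 67.6% with no filter.

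The other selenoproteins gave 3 calls, and 6 with normexp, 11 with median centring, 1 without control replicates 2 and 4, and 0 with the block, the run name or the first run name alone (6, 5 and 4 at an unadjusted p under 0.05), with 0 to 5 on leaving out 1 array. Selenocysteine synthesis gave 2, and 4 with normexp, 13 with median centring, 4 with a trended robust variance, 1 without control replicates 2 and 4, and 0 with the block or the first run name (5 and 3 unadjusted), with 1 to 4 on leaving out 1 array. Selenium uptake gave 2, and 7 with median centring, 0 with the block, the run name or the first run name (3, 2 and 2 unadjusted), with 1 to 3 on leaving out 1 array. Sulfide metabolism gave 0, and 1 with normexp, 6 with median centring, and 0 to 1 on leaving out 1 array. Median centring gave 15 for thyroid hormone transport, 6 for thyroid hormone targets, 12 for peroxidase partners, 11 for lipid peroxidation and 11 for transcription factors. The block gave 4, 1, 0, 0 and 2 for the same lists and 3 for p53 targets, and the first run name gave 3, 1, 0, 0 and 1, where peroxidase partners and lipid peroxidation had 6 and 5 genes at an unadjusted p under 0.05 with the block and 4 and 3 with the first run name. The run name as a covariate gave 1 for thyroid hormone targets, 1 for peroxidase partners and 1 for transcription factors. Peroxidase partners gave 8 with normexp and 5 each with quantile normalization, the percentile over detected probes and the authors' log2 values, and p53 targets 3 without control replicates 2 and 4.

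With median centring the differences turned to -0.062 for Selenop, -0.15 for Selenbp1, -0.12 for Msrb1, -0.45 for Rpl30, -0.070 for Alb, -0.48 for Ugt1a1, -0.29 for Pck1, -0.45 for Ftl1 and -0.53 for Hnf4a, and among genes that neither fit called to -0.34 for Gpx1, -0.33 for Sephs2, -0.43 for Slco1b2, -0.51 for Cpt1a, -0.37 for Sod1, -0.10 for Cat and -0.33 for Fth1. The mean over probes gave -0.015 for Sod3. The cause of these changes was not tested. No control array correlated best with the oxaliplatin array of its own number. With 1 group on each slide, no slide term could be fitted. Signal over background limits Txnrd2, 1 of whose 3 probes was below the limit on 1 array.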
